A study of Homo sapiens with 6 samples.

Results

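The genes that govern how a cell stores fat in lipid droplets and how it burns that fat were followed in MDA-MB-231, a human cell line long used as a model of triple-negative breast cancer, after exposure to the peptide PDBAG1. These 10 genes were found by their symbols among the 17631 genes listed for each library, and all 10 were present. They form 6 genes of droplet storage (PLIN2, PLIN3, HILPDA, G0S2, DGAT1 and DGAT2) and 4 of lipolysis and fatty acid oxidation (PNPLA2, ABHD5, CPT1A and ACADVL). The study compared 3 libraries from cells given vehicle with 3 from cells given 30 µM PDBAG1, both for 24 h, in the same medium with serum. PDBAG1 is a synthetic peptide whose sequence comes from the metabolic enzyme GPD1 and carries a cell-penetrating stretch. No vehicle beyond the name was described in the labels, and no control peptide is among the libraries. The labels name breast cancer tissue as the source beside the cell line. All cells come from a single cultured line, and nothing in the labels says whether the libraries came from separate cultures, so the p values measure the spread between libraries, which may be technical.

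Cells keep surplus fatty acids as triacylglycerol inside lipid droplets, which are coated by perilipins and filled by the diacylglycerol acyltransferases. The lipase PNPLA2, also called ATGL, removes the initial fatty acid from the stored triacylglycerol. ABHD5 switches this lipase on, whereas the small proteins G0S2 and HILPDA inhibit it. Released fatty acids enter mitochondria through CPT1A and are shortened by beta-oxidation, in which ACADVL acts on the long chains. HILPDA and PLIN2 are known to respond to hypoxia signalling, and several genes of the pathway answer to the PPAR nuclear receptors.

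Levels are in TPM, a length-corrected share of all transcripts, the unit the authors deposited. Since a TPM is such a share, the value of a gene can also move when other transcripts change. Each library pools the RNA of many cells, so fewer cells expressing a gene and less of its RNA per cell cannot be told apart. Sequencing depth is unknown from TPM, and no counting error could be given. Tests used limma on log2(TPM + 1) over the 12582 genes with 1 TPM or more in no fewer than 3 libraries, and all 10 genes passed this filter in every library. Fold changes on this scale are given as log2 changes. A gene was called when its p value, adjusted by Benjamini-Hochberg across the 12582 genes, was below 0.05, and the study's limit of a 1.5-fold change was applied as a second call. Between 12392 and 12611 genes per library reached a TPM of 1, and the standard deviation of log2 differences between libraries spanned 0.14 to 0.18 for libraries of the same treatment and 0.28 to 0.30 for libraries of different treatments.

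Of 9 marker genes for the line, VIM, CD44, AXL, EGFR and KRT18 were listed as present, and ESR1, PGR, ERBB2 and EPCAM as low. VIM and CD44 rose with PDBAG1, by log2 changes of 0.46 and 0.59 from means of 4270 and 321 TPM. AXL and KRT18 fell, with log2 changes of -0.26 and -0.21 from means of 384 and 518 TPM. EGFR, ESR1, ERBB2 and EPCAM were not called and PGR did not reach the filter described above. PGR was at most 0.06 TPM, ESR1 lay at 1.96 to 3.38 TPM and ERBB2 at 23.6 to 25.4 TPM. Of 7 adipocyte markers, which matter for these genes, ADIPOQ, LEP, PLIN1 and FABP4 stayed at or below 0.87 TPM in every library. LIPE lay at 1.9 to 3.6 TPM, CFD at 8.27 to 10.19 TPM and CIDEC at 9.47 to 14.04 TPM, and none of these was called. The 7 markers summed to 22.9 to 26.8 TPM with vehicle and 22.4 to 23.7 TPM with PDBAG1. The 6 markers of leukocytes, endothelium and fibroblasts that were measured summed to 260 to 273 TPM with vehicle and 320 to 342 TPM with PDBAG1, almost all of it CD68. PTPRC, VWF and PDGFRA stayed at or below 1.41 TPM, whereas CD68 rose by a log2 change of 0.31 (adjusted p = 5.50e-05 by limma) and PECAM1 by 0.96 (adjusted p = 2.21e-06 by limma). The part of these markers in the results was not tested.

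Of the 10 genes, 8 rose with PDBAG1, 1 fell and 1 did not pass the test. Over all genes tested, 21.7% were called higher and 15.9% lower, and 37.6% in either direction. That balance depends on the scaling. Of all genes, 2736 were called higher and 2000 lower as deposited, 2455 and 2741 under median-of-ratios scaling, 2404 and 2742 under quantile normalization, and 2457 and 3142 with dependence on transcript length and GC content removed, a setting chosen after the data were seen. The 10 genes gave 8 rises and 1 fall under each of these. The 8 rises and the 1 fall were also the genes whose groups did not overlap, against 27.2% of all genes tested with every PDBAG1 library higher and 20.2% with every PDBAG1 library lower. At the 1.5-fold limit G0S2 and PLIN2 were called, compared with 2.86% of all genes called higher and 0.477% called lower, or 3.34% together. The median log2 change was 0.28 over the 10 genes, 0.30 over the 6 storage genes and 0.22 over the 4 lipolysis and oxidation genes, beside 0.03 over all genes tested.

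**Figure D1:**
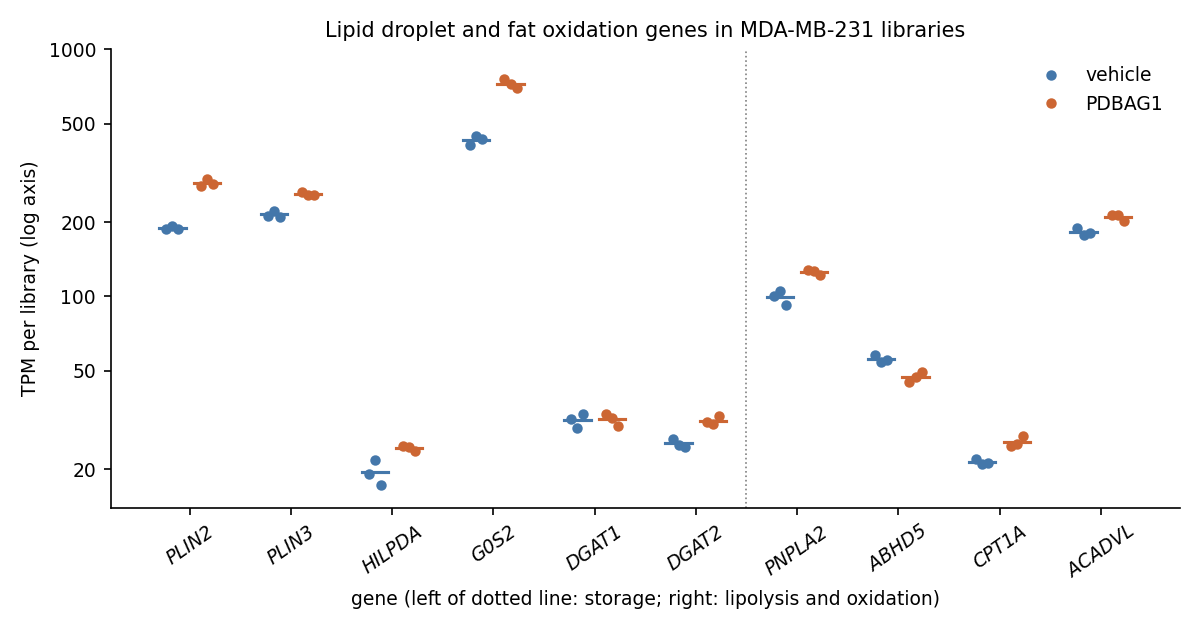
TPM of the 10 genes on a log axis, with 1 point per library and a bar at the mean of the 3 libraries of a treatment. Vehicle and PDBAG1 points are separate for every gene except DGAT1, and ABHD5 is the gene whose PDBAG1 points lie below those of vehicle.

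The upstream sequences of the genes past the fold limit and of the gene that fell are shown because the study asked about hypoxia in these cells, and the DNA core bound by hypoxia-inducible factors reads ACGTG or GCGTG. They are the 250 bases before the RefSeq start site (GRCh38.p14), 5′ to 3′ on the gene's strand, and capitals mark either core on either strand. They lie at chr9:19127493-19127742 on the minus strand for PLIN2, at chr1:209675162-209675411 on the plus strand for G0S2 and, for the most upstream of its 3 start sites, at chr3:43690620-43690869 on the plus strand for ABHD5.
PLIN2: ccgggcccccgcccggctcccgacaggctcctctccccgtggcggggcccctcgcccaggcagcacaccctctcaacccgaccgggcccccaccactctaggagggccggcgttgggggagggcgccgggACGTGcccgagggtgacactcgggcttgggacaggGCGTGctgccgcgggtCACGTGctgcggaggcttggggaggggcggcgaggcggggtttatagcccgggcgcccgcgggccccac
G0S2: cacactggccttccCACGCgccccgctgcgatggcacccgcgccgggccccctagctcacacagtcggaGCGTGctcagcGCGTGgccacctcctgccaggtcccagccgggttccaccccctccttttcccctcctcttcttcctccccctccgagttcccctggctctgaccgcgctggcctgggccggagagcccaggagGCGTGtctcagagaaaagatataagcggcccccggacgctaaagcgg
ABHD5: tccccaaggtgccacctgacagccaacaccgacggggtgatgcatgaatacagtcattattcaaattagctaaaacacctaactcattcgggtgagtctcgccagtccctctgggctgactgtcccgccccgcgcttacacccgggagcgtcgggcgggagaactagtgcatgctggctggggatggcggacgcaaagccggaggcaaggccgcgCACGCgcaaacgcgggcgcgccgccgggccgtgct

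The PLIN2 window held 3 matches to ACGTG and 1 to GCGTG. A pair of the ACGTG matches are the opposite strands of a single palindromic CACGTG, the E-box that other factors also bind. The G0S2 window held no ACGTG and 4 matches to GCGTG, and the ABHD5 window held 1 match to GCGTG. Of its other start sites, the window at chr3:43690688-43690937 overlaps the printed one, and its 1 match is the same site. The remaining window held 0. Of the 35116 upstream windows of the same length, 18.5% held ACGTG, 32.2% held GCGTG and 43.2% held either, while CACGTG was in 6.34%. These shares are of windows with 1 match or more. The share with as many matches as PLIN2, G0S2 or PLIN3 was not taken, so those counts have no like comparison. Sequences were at hand for 7 of the 10 genes, so HILPDA, DGAT1 and DGAT2 were not examined for either core. The PLIN3 window held 3 matches to GCGTG, those of PNPLA2 and CPT1A held neither core, and of the 2 ACADVL windows the upstream one held neither and the other held 1 of each. The base composition of the windows differs, from 44.4% G and C at CPT1A to 78% at PLIN2, and these short matches are a description of the sequence only.

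The droplet coat genes both rose. PLIN2 encodes the perilipin that coats droplets in most cells and is stable only when bound to them. On chromosome 9 (19108375 to 19149290, GRCh38, GENCODE v44), it was at 187, 193 and 188 TPM in the vehicle libraries and at 280, 299 and 285 TPM with PDBAG1. The vehicle values were close together and every PDBAG1 library was far above them. The mean rose from 190 ± 3.35 to 288 ± 9.71 TPM (SD of 3 libraries), and the log2 change was 0.60 (SE 0.04, adjusted p = 8.67e-08 by limma). This sat close to the 1.5-fold limit. PLIN2 passed that limit in the main setting but not under median-of-ratios scaling, where its log2 change was 0.56, or without PDBAG1 replicate 2, where it was 0.57.

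PLIN3, a perilipin that is soluble in the cytosol and moves onto young droplets, lies on chromosome 19 (4838341 to 4867694). Its vehicle libraries were at 212, 222 and 210 TPM and its PDBAG1 libraries at 264, 256 and 259 TPM. The groups did not overlap, and the log2 change was 0.27 (SE 0.04, adjusted p = 9.64e-05 by limma). The order of the perilipins turned round within the libraries. PLIN2 stood at 0.882, 0.871 and 0.897 of the PLIN3 level with vehicle and at 1.06, 1.16 and 1.10 with PDBAG1. On the log2 scale the PLIN2 to PLIN3 ratio was 0.33 higher with PDBAG1 (two-sided exact permutation test, p = 0.1, adjusted p = 0.14 over 7 ratios). With 3 libraries against 3, 0.1 is the smallest p this test can give, so no ratio could pass 0.05.

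The inhibitors of the lipase also rose. G0S2 was the most abundant of the 10 genes and the one that changed most. It lies on chromosome 1 (209675412 to 209676390), and its level in the libraries was 412, 447 and 432 TPM with vehicle and 757, 723 and 695 TPM with PDBAG1. The lowest treated library was far above the highest vehicle library. The mean rose from 430 ± 17.7 to 725 ± 31.2 TPM (SD of 3 libraries), and the log2 change was 0.75 (SE 0.04, adjusted p = 1.54e-08 by limma), and 1.47% of all genes tested had a higher fold change. G0S2 alone made up 46.3% to 47.7% of the summed TPM of the 6 storage genes with vehicle and 52.5% to 54.5% with PDBAG1. It passed the 1.5-fold limit under every alternative that was run.

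HILPDA, on chromosome 7 (128455849 to 128458418), was the least abundant of the 10 genes. The vehicle libraries held 19.2, 21.8 and 17.3 TPM and the PDBAG1 libraries 24.9, 24.7 and 23.6 TPM. The groups did not overlap, but the vehicle libraries were spread more widely than the treated ones. The log2 change was 0.32 (SE 0.08, adjusted p = 0.00534 by limma), and with single libraries left out it lay between 0.24 (vehicle replicate 3 omitted) and 0.40 (vehicle replicate 2 omitted), called in both cases. Parts of the HILPDA transcript, 13.6% and 10.7% of its exon bases, overlap annotated long noncoding RNAs on the same strand. Such an overlap takes 12.2% of the exon bases of DGAT1, also on the same strand. On the opposite strand, such overlaps take 22.5% of PLIN3, 17.6% of DGAT2 and 13.7% of PNPLA2. Whether reads were counted by strand is not given in the sources used here. Counting by strand would not separate the same-strand overlaps.

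Of the acyltransferases that make triacylglycerol, DGAT2 rose and DGAT1 did not pass the test. DGAT2 (chromosome 11, 75759512 to 75801535), which works at the droplet surface on newly made fatty acids, was at 26.6, 25.2 and 24.6 TPM with vehicle and 31.0, 30.4 and 32.7 TPM with PDBAG1. No treated library fell within the vehicle range, and the log2 change was 0.29 (SE 0.06, adjusted p = 0.00163 by limma). DGAT1 (chromosome 8, 144314584 to 144326910), the enzyme of the endoplasmic reticulum that re-esterifies fatty acids, was at 32.0, 29.4 and 33.5 TPM with vehicle and 33.6, 32.4 and 30.0 TPM with PDBAG1. These ranges lie on top of each other. The log2 change of DGAT1 was 0.02 (95% confidence interval -0.12 to 0.16, adjusted p = 0.865 by limma), and its sign turned under both other scalings. That interval leaves room for a rise or a fall of DGAT1. With dependence on transcript length and GC content removed, a setting chosen after the data were seen, its log2 change was -0.15 and not called.

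Within a library, DGAT2 stood at 0.831, 0.858 and 0.736 of the DGAT1 level in the vehicle libraries and at 0.923, 0.939 and 1.09 in the PDBAG1 libraries. The log2 ratio was 0.27 higher with PDBAG1 (two-sided exact permutation test, p = 0.1, adjusted p = 0.14). In the vehicle libraries every DGAT1 value was above every DGAT2 value, whereas with PDBAG1 the ranges overlapped.

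**Figure D2:**
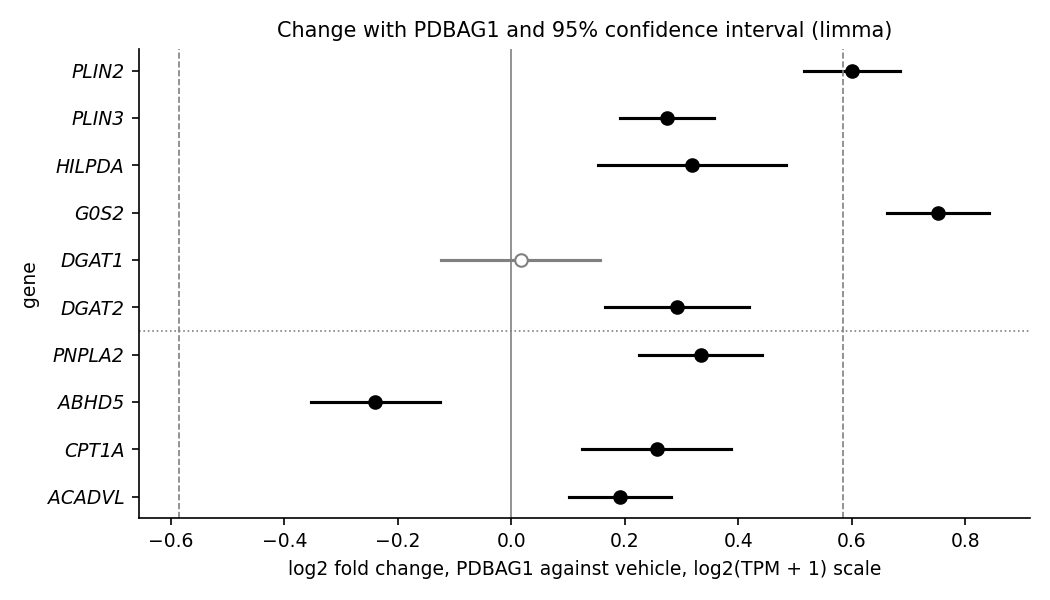
Log2 fold change of each gene with PDBAG1 on the log2(TPM + 1) scale, with the 95% confidence interval from limma. Filled points passed an adjusted p of 0.05, dashed lines mark a 1.5-fold change and the dotted line separates the 6 storage genes from the 4 of lipolysis and oxidation. G0S2 at 0.75 and PLIN2 at 0.60 lie past the dashed line, and ABHD5 at -0.24 is the one below zero.

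The lipase and its activator moved in opposite directions. PNPLA2 (chromosome 11, 818914 to 825573) was at 100.2, 105 and 92.6 TPM with vehicle and at 128, 126 and 122 TPM with PDBAG1. The treated libraries were all above the vehicle libraries. The log2 change was 0.33 (SE 0.05, adjusted p = 0.000182 by limma). It was 0.20 and still called once dependence on transcript length and GC content was removed, a setting chosen after the data were seen. Of the storage genes, the same setting lowered the log2 change of PLIN3 from 0.27 to 0.20 and of DGAT2 from 0.29 to 0.23. It gave 0.34 for HILPDA, 0.63 for PLIN2 and 0.76 for G0S2, and all of these stayed called.

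ABHD5, on chromosome 3 (43690108 to 43734371), was the 1 gene that fell. It was at 57.9, 54.4 and 55.6 TPM with vehicle and at 45.0, 47.4 and 49.4 TPM with PDBAG1, with no overlap. The mean TPM fell by 15.6%, with a log2 change of -0.24 (SE 0.05, adjusted p = 0.00292 by limma). With each library left out in turn it lay between -0.27 and -0.21 and stayed called.

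Set against the lipase in the same library, the treatments were apart for ABHD5 and G0S2 and overlapped for HILPDA. ABHD5 stood at 0.578, 0.516 and 0.60 of the PNPLA2 level with vehicle and at 0.351, 0.375 and 0.405 with PDBAG1, a log2 difference of -0.57. G0S2 stood at 4.11, 4.24 and 4.66 times the PNPLA2 level with vehicle and at 5.92, 5.73 and 5.70 times with PDBAG1, a log2 difference of 0.42. In both ratios the groups were apart (two-sided exact permutation test, p = 0.1 and adjusted p = 0.14 for each). Since ABHD5 fell and PNPLA2 rose without overlap, the separation of their ratio was fixed by those values and is no further test. HILPDA stood at 0.192, 0.207 and 0.187 of the PNPLA2 level with vehicle and at 0.194, 0.195 and 0.194 with PDBAG1. The treated values of this ratio lay inside the vehicle range (log2 difference -0.02, exact permutation p = 1).

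**Figure D3:**
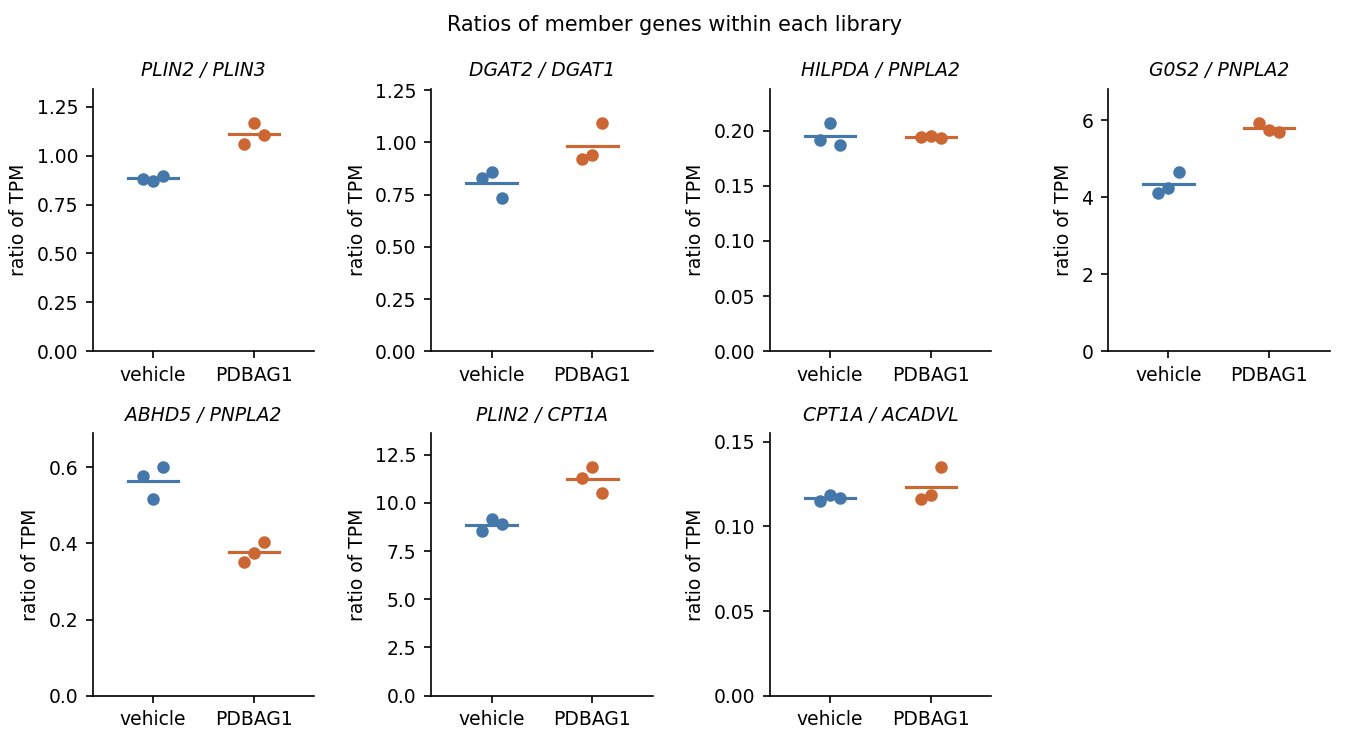
Ratios of TPM between pairs of the genes within each library, with 1 point per library, a bar at the mean of 3 and each axis starting at 0. The PDBAG1 points are above vehicle for PLIN2 to PLIN3, DGAT2 to DGAT1, G0S2 to PNPLA2 and PLIN2 to CPT1A, below it for ABHD5 to PNPLA2, and overlap it for HILPDA to PNPLA2 and CPT1A to ACADVL.

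The oxidation genes both rose by less than the 1.5-fold limit. CPT1A (chromosome 11, 68754620 to 68844410), the outer membrane enzyme that commits long-chain fatty acids to the mitochondrion, was at 21.9, 21.1 and 21.1 TPM with vehicle and at 24.8, 25.3 and 27.2 TPM with PDBAG1. All treated libraries exceeded all vehicle libraries, with a log2 change of 0.26 (SE 0.06, adjusted p = 0.00501 by limma). ACADVL (chromosome 17, 7217125 to 7225266), the dehydrogenase that opens beta-oxidation of very long chains, was at 190, 178 and 181 TPM with vehicle and at 213, 213 and 201 TPM with PDBAG1. This was the smallest called rise of the 10 genes, a log2 change of 0.19 (SE 0.04, adjusted p = 0.00289 by limma). With dependence on transcript length and GC content removed, a setting chosen after the data were seen, the log2 changes were 0.16 for CPT1A and 0.12 for ACADVL, both still called.

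CPT1A stood at 0.115, 0.119 and 0.117 of the ACADVL level with vehicle and at 0.116, 0.119 and 0.135 with PDBAG1, and the groups overlapped (log2 difference 0.06, two-sided exact permutation p = 0.6). PLIN2, in contrast, was at 8.54, 9.17 and 8.90 times the CPT1A level with vehicle and at 11.3, 11.8 and 10.5 times with PDBAG1 (log2 difference 0.34, exact permutation p = 0.1, adjusted p = 0.14). In sum, the 6 storage genes held 889 to 938 TPM in the vehicle libraries and 1325 to 1391 TPM in the PDBAG1 libraries. Of this sum G0S2 alone held 412 to 447 TPM with vehicle and 695 to 757 TPM with PDBAG1, so the sum mostly follows that gene. The 4 genes of lipolysis and oxidation held 350.3 to 370.1 TPM and 399.8 to 412 TPM.

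The order of the levels was much the same in both treatments. With vehicle it ran from G0S2 through PLIN3, PLIN2, ACADVL, PNPLA2, ABHD5, DGAT1, DGAT2 and CPT1A to HILPDA, and the ranges of PLIN2 and ACADVL, and of CPT1A and HILPDA, overlapped. With PDBAG1 the order differed in PLIN2 standing above PLIN3, and the overlapping neighbours were DGAT1 with DGAT2 and CPT1A with HILPDA. The mean level over all libraries placed G0S2 above 98.3% of the genes tested, PLIN2 above 94.8% and HILPDA above 50.6%.

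Around these 10 genes, 126 other genes of fat storage and use were listed, of which 122 were in the table and 106 passed the filter. The lists were written with earlier results of these data known. With PDBAG1 32 of the 106 were called higher and 6 lower, beside 21.7% and 15.9% of all genes tested, and their median log2 change was 0.07. The calls were 28 higher and 17 lower under median-of-ratios scaling, 29 and 17 under quantile normalization, and 32 and 19 with dependence on transcript length and GC content removed. The counts by list that follow, those of 0 falls included, and the list medians are for the values as deposited. Removing dependence on transcript length and GC content, as above, lowered the log2 change of LPIN2 from 0.28 to 0.19, of MGLL from 0.26 to 0.14, of SLC27A1 from 0.42 to 0.26 and of CRAT from 0.36 to 0.23 and changed that of FABP5 from -0.37 to -0.24, and all of these stayed called.

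Triacylglycerol synthesis upstream of the acyltransferases had 6 of 13 genes called higher and none lower, with a median log2 change of 0.12. All 3 lipins, the phosphatases that make diacylglycerol, rose. LPIN1 went from 39.4 ± 2.02 to 68.4 ± 2.65 TPM (mean ± SD of 3 libraries, log2 change 0.78, adjusted p = 1.58e-07 by limma), LPIN3 rose by 0.54 and LPIN2 by 0.28. AGPAT4, an acyltransferase of the preceding step, rose by 0.42 from 4.58 ± 0.0231 TPM, and GPAT4, which starts glycerolipid synthesis, rose by 0.20. The call of GPAT4 was lost when dependence on transcript length and GC content was removed (log2 change 0.07).

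The remaining droplet coat and assembly genes gave few calls, 2 of 14 higher and none lower, with a median of 0.01. TMEM159, also named LDAF1, a partner of seipin where droplets form, rose from 35.6 ± 0.690 to 49.7 ± 3.13 TPM (mean ± SD of 3 libraries, log2 change 0.47, adjusted p = 2.85e-05 by limma). AUP1, a droplet protein of the ubiquitin system, rose by 0.19. The other perilipins PLIN1, PLIN4 and PLIN5 did not reach the filter.

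Among 13 other lipases 8 were called higher and none lower, with a median of 0.19. PNPLA8, a phospholipase of mitochondria and peroxisomes, rose from 21.2 ± 1.06 to 30.8 ± 1.16 TPM (mean ± SD of 3 libraries, log2 change 0.52). MGLL, which completes triacylglycerol breakdown, rose by 0.26 and ABHD12, a lysophospholipid lipase, by 0.26. LIPG, the endothelial lipase, rose by 0.78 but from a low level of 1.11 ± 0.177 TPM, and by 1.17 with a pseudocount of 0.1. PNPLA3 rose by 0.27 with overlapping groups, and its call was lost in 9 of 14 alternatives, among them those without vehicle replicate 2 or 3 and without PDBAG1 replicate 2 or 3.

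Fatty acid uptake and activation had 6 of 14 genes called higher and 1 lower, with a median of 0.14. VLDLR, a receptor that takes up triacylglycerol-rich lipoproteins, rose from 3.81 ± 0.0866 to 9.36 ± 0.0473 TPM (mean ± SD of 3 libraries, log2 change 1.11, adjusted p = 2.50e-07 by limma). ACSS2, which activates acetate in the cytosol, rose by 0.85 and the long-chain acyl-CoA synthetase ACSL5 by 0.40. The fatty acid transporters SLC27A1 and SLC27A3 rose by 0.42 and 0.48, SLC27A3 from a low level of 1.92 ± 0.383 TPM. The 1 fall was FABP5, a cytosolic fatty acid carrier picked after its value was seen, from 312 ± 1.00 to 242 ± 3.47 TPM (mean ± SD of 3 libraries, log2 change -0.37, adjusted p = 3.20e-06 by limma).

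**Figure D4:**
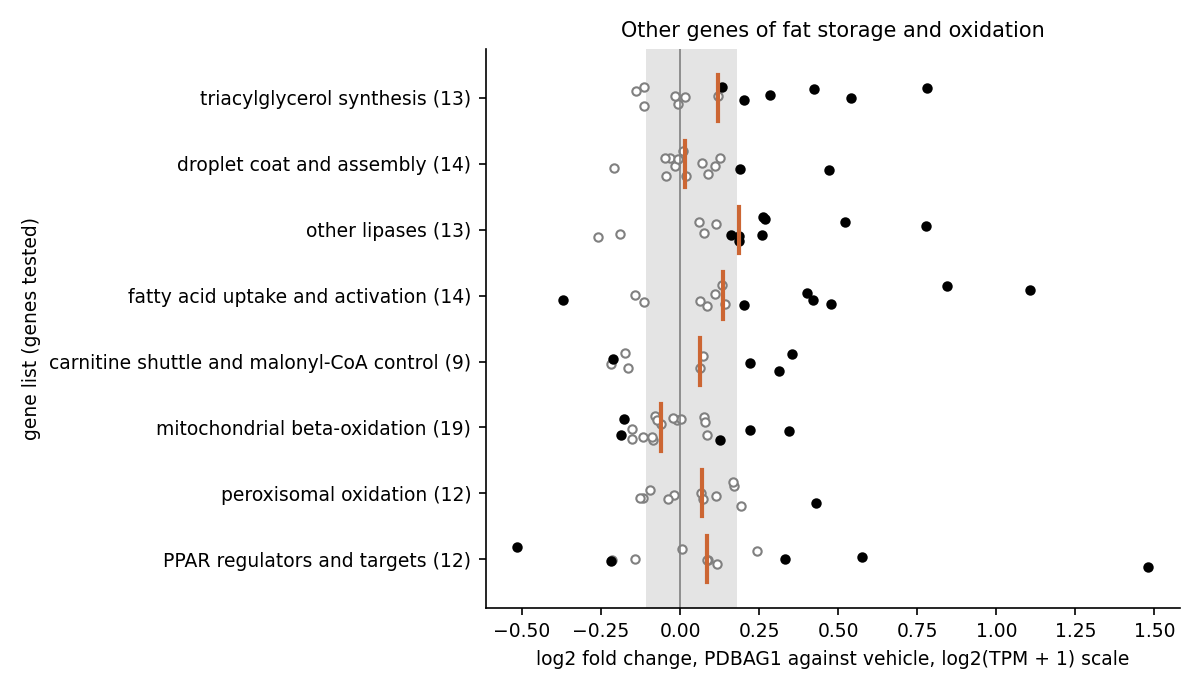
Log2 fold changes of the 106 other genes of fat storage and oxidation that were tested, by list, with 1 point per gene. Filled points passed an adjusted p of 0.05, orange bars are list medians and the grey band is the interquartile range of all genes tested, from -0.11 to 0.18. The medians run from -0.06 for mitochondrial beta-oxidation to 0.19 for other lipases.

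Beyond CPT1A, the carnitine shuttle and its malonyl-CoA control gave 3 of 9 genes higher and 1 lower, with a median of 0.06. CRAT, the mitochondrial carnitine acetyltransferase, rose by 0.36 (adjusted p = 0.000409 by limma), CPT1B, the muscle form of the entry enzyme, by 0.31 and CPT2, its inner membrane partner, by 0.22. CPT1B shares exons with an annotated readthrough of its neighbour CHKB, so its reads may be split between them. SLC25A20, the carrier that moves acylcarnitines inward, fell by 0.21. The call of CPT2 was lost without any 1 vehicle library and without PDBAG1 replicate 1 or 2. That of SLC25A20 was lost without vehicle replicate 1 or 2 and without any 1 PDBAG1 library.

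Mitochondrial beta-oxidation beyond ACADVL had 3 of 19 genes called higher and 2 lower. For the values as deposited it was the list with a median below 0, at -0.06. HADHA, the trifunctional protein subunit for long chains, rose by 0.13, and the acyl-CoA dehydrogenases ACAD10 and ACAD11 by 0.34 and 0.22. HADH, the short-chain hydroxyacyl-CoA dehydrogenase, fell by 0.19 and ACAD8, which serves valine breakdown, by 0.18. The calls of HADHA, ACAD11 and ACAD8 were lost in 7, 7 and 6 of 14 alternatives. Each was lost without vehicle replicate 3, PDBAG1 replicate 2 or PDBAG1 replicate 3, those of HADHA and ACAD11 also without vehicle replicate 2, and that of ACAD8 without vehicle replicate 1. Under quantile normalization ACAD11 and, of the shuttle, CPT2 had log2 changes of 0.13, neither called. That of ACAD10 was lost without vehicle replicate 3 or PDBAG1 replicate 2, and that of HADH without vehicle replicate 2. Peroxisomal oxidation gave 1 call among 12 genes, ACOX2, a branched-chain acyl-CoA oxidase, which rose by 0.43 (adjusted p = 0.00140 by limma), and its median was 0.07.

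Of 12 PPAR regulators and targets 3 were called higher and 2 lower, with a median of 0.09. ANGPTL4, a secreted inhibitor of lipoprotein lipase that both PPARs and hypoxia signalling induce, rose from 3.29 ± 0.444 to 10.9 ± 0.672 TPM (mean ± SD of 3 libraries, log2 change 1.48, adjusted p = 8.96e-08 by limma). PDK4, the pyruvate dehydrogenase kinase of fasting, rose by 0.58 from 1.35 ± 0.285 TPM, and the receptor partner RXRB by 0.33. PPARG itself fell from 79.4 ± 5.61 to 68.04 ± 1.45 TPM (mean ± SD of 3 libraries, log2 change -0.22, adjusted p = 0.00655 by limma). UCP2, a mitochondrial carrier of the uncoupling protein family, fell from 111 ± 5.94 to 77.2 ± 0.846 TPM (mean ± SD of 3 libraries, log2 change -0.51, adjusted p = 2.46e-06 by limma).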

How the data were processed

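The 6 mRNA libraries were sequenced on the BGISEQ-500 platform, mapped by the authors with HISAT2 to GRCh38.p13 and, per the methods, normalised to FPKM. The values they deposited are TPM, rounded to 2 decimals. The submitters' processing notes name HISAT2 2.0.4, Bowtie2 2.2.5, RSEM 1.2.12 and GRCh38.p12. The step to TPM and the annotation release are not given in the sources used here. TPM keeps no depth, so precision rests on the 3 libraries per group.

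Groups and replicate numbers came from the sample titles. The 10 genes, the wider lists and the tests were chosen with earlier results of these data known. The filter kept genes reaching 1 TPM in no fewer than 3 libraries, and these were compared as log2(TPM + 1) in R 4.3.3 with limma 3.58.1 (lmFit, eBayes with trend), with Benjamini-Hochberg adjustment over 12582 genes. These fold changes understate changes of low genes. In simulated data the fit recovered 99 of 100 genes changed by 0.6 in log2 and 56 of 100 changed by 0.3. It called 7 unchanged genes. Far more genes were called in the real data, so these shares may not carry over. A gene that was not called was not shown to be unchanged. Ratios of 2 genes within a library were taken on TPM, and their log2 differences on TPM + 1, with an exact permutation test. Named genes were all 10 members and up to 5 called genes per wider list, those with the largest changes. FABP5, CD68, PECAM1 and the other cell type markers, those of the line included, were named outside this rule, FABP5 after its value was seen. Positions are those of GENCODE v44 (GRCh38), matched by Ensembl identifier. Alternatives changed the filter, pseudocount, scaling, variance trend, replicate block and libraries, and, added after the data were seen, removed trends with transcript length and GC content over the 12433 genes with both. Of the listed genes, some, such as MOGAT1, CIDEA, CES1 and DCN, were not analysed here.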

Additional observations from a re-analysis of the deposited data

How the results depend on the processing

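All 9 called genes among the 10 kept direction and call in each of the 14 alternatives, and G0S2 and PLIN2 kept the 1.5-fold call except that PLIN2 lost it under median-of-ratios scaling, leaving 1 gene, and with libraries left out in turn (1 to 2 genes). DGAT1, never called, had log2 fold changes of -0.024 under median-of-ratios scaling, -0.021 under quantile normalization and -0.15 with length and GC trends removed, and -0.034 to 0.061 with libraries left out. The HILPDA to PNPLA2 log2 difference lay between -0.042 and 0.022 with libraries left out. Among the wider lists the 6 genes called lower became 17 under median-of-ratios scaling, 17 under quantile normalization and 19 with length and GC trends removed. Over all genes, those called lower rose to 3142 with length and GC trends removed, and those lower by 1.5-fold, 60 in the main setting, to 100 with pseudocount 0.1 and 94 under quantile normalization. The cause was not tested.

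When a replicate block was added to the fit, the same 9 genes were called, and 2313 of all genes were higher and 1638 lower, against 2736 and 2000. Libraries that share a number did not vary together (correlations of their deviations -0.21, 0.01 and -0.08), and not every library correlated best with its own number. The unknown depth of the libraries limits what can be said of genes near 1 TPM.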
